A study of Rattus norvegicus with 12 samples.

Results

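Organic anion transporting polypeptides are membrane carriers that take bile acids, steroid sulfates and glucuronides, thyroid hormones, prostaglandins and many drugs into cells, and they are encoded by genes named Slco. The 7 Slco genes described here, Slco1a1, Slco1a6, Slco2a1, Slco2b1, Slco3a1, Slco4a1 and Slco4c1, were found by their symbols in 2 tables of expression values from rat kidney. Each had 1 entry in each table, among 22132 entries in the table of the adenine model and 32623 in that of the ureteral obstruction model, of which 15029 and 15043 were tested. They are the members of the family with FPKM values high enough to test, and they were 7 of 13 Slco symbols in the adenine table and 7 of 15 in the obstruction table.

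RNA was sequenced from the kidneys of 12 wild-type male Sprague-Dawley rats, 3 in each of 4 groups, bought at 8 weeks of age. In the adenine model, the adenine group received 220 mg/kg of adenine per day by gavage for 3 weeks and the control group received saline. In the unilateral ureteral obstruction (UUO) model, the left ureter was ligated and kidneys were taken 2 weeks later, and the sham group had the operation without ligation. Values are FPKM, fragments per kilobase of transcript scaled to the number of mapped fragments, so that levels of genes are compared per length, and the 2 tables were normalized separately, so that each change was tested within its own table. The region of the kidney that was sampled is not given in the sources used here, and each model was taken at 1 time point only.

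In kidney, uptake of organic anions is chiefly a task of the proximal tubule, where Slco1a1 (Oatp1) lies in the brush border membrane of the late, straight segment (S3) and Slco4c1 lies in the basolateral membrane, facing the blood. Slco2a1 is the prostaglandin transporter, which clears prostaglandins from the extracellular space, while Slco2b1, Slco3a1 and Slco4a1 are expressed in many tissues and carry steroid sulfates, prostaglandins and thyroid hormones, respectively, among other substrates. Slco1a6 (Oatp5) is a close relative of Slco1a1 and lies in the same gene cluster.

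Slco1a1, Slco1a6 and Slco4c1 fell in both models, and Slco2b1, Slco3a1 and Slco4a1 rose in both. Whether Slco2a1 was called higher in UUO depended on the processing. A gene was called changed at a Benjamini-Hochberg adjusted p under 0.05 from limma on log2(FPKM + 0.1), and called a differentially expressed gene (DEG) when the log2 fold change was also at least 2 in size. In the adenine model 3 of 7 members were changed and higher, where 39.6% of all tested entries were, and 3 were changed and lower, where 19.9% were. Of these, 1 was a DEG upward (10.7% of all tested) and 3 were DEGs downward (5.03%). In UUO 4 members were changed and higher (56.1% of all tested) and 3 were lower (14.4%), with 2 DEGs upward (13.2%), of which Slco4a1 was not a DEG under every setting, and 3 downward (4.21%). Among the 4 higher members, Slco2a1 was at the threshold (adjusted p = 0.0496) and was not called under every setting. The 3 control and 3 model rats did not overlap for 6 of 7 members in each model, a share to be read against 68% of all tested entries in the adenine table and 75.7% in the UUO table. The median log2 fold change of the 7 members was 0.47 in the adenine model, beside 0.30 for all tested entries, and 0.82 in UUO, beside 0.62. These shifts of all entries were 0.014 and 0.030 once each table was rescaled by median-of-ratios factors, and the 3 members that fell and the 3 that rose kept their direction and their call under that scaling.

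**Figure D1:**
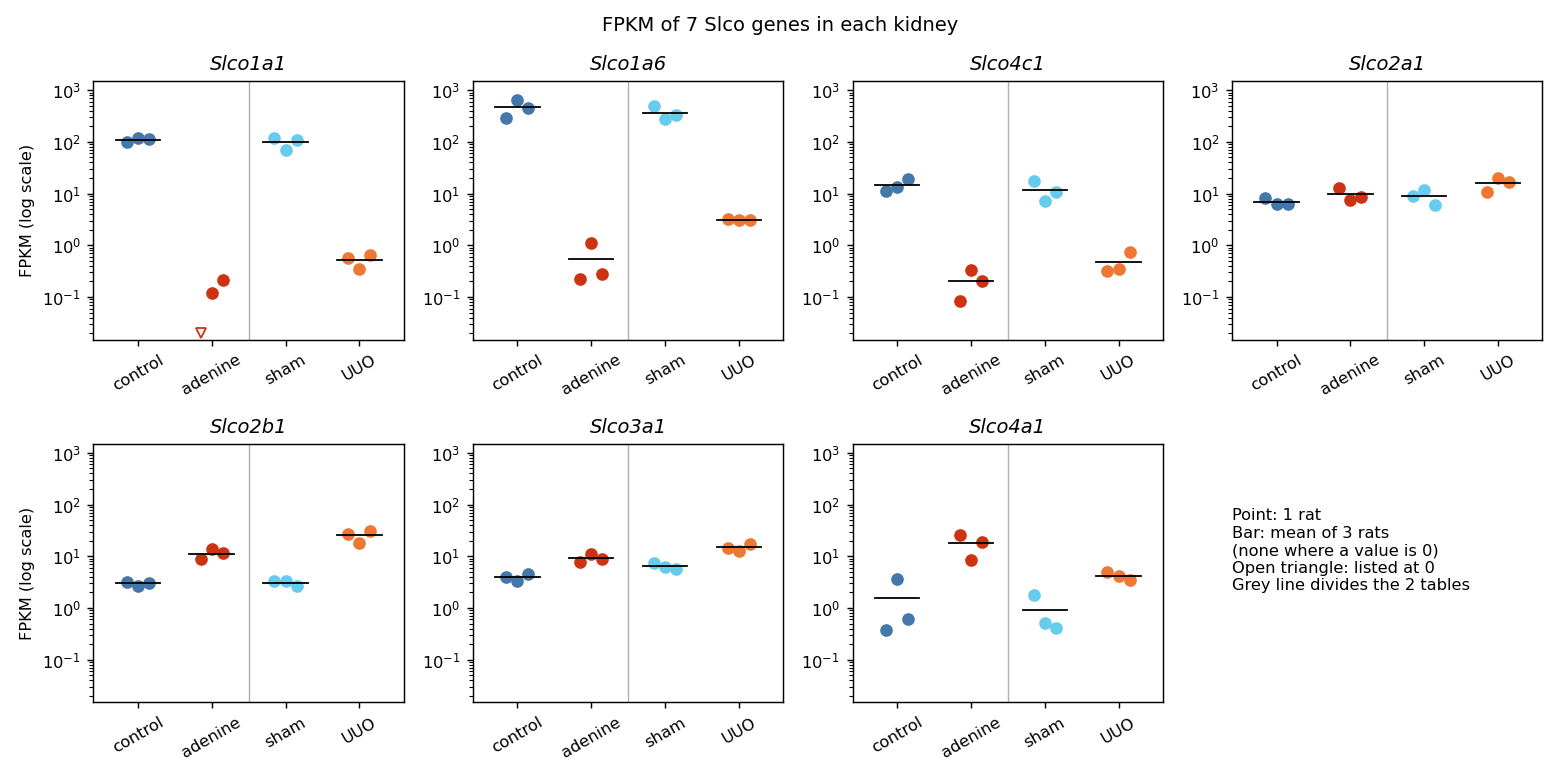
FPKM on a log axis of each Slco gene in every rat, by group, with a bar at the mean of 3 rats where no value is 0 and a grey line between the 2 separately normalized tables. Slco1a1, Slco1a6 and Slco4c1 lie far lower in all model rats than in all reference rats, Slco2b1, Slco3a1 and Slco4a1 lie higher, and the Slco2a1 groups overlap in both tables.

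Slco1a6 was the most abundant member in the reference kidneys. Its FPKM was 286.8, 652.6 and 448.8 in control rats 1, 2 and 3 and 494.0, 275.8 and 323.7 in the sham rats. The mean was 462.7 ± 183.3 (SD, n = 3) in control and 364.5 ± 114.7 in sham kidneys, which placed it at rank 109 of 15029 and rank 188 of 15043 tested entries. In the adenine rats it was 0.220, 1.13 and 0.284, and in the UUO rats 3.21, 3.07 and 3.10. No model rat came near any reference rat, the adenine rats spread more than the UUO rats, and adenine rat 2 was the highest of its group. The mean left was 0.118% of the control mean and 0.858% of the sham mean. The log2 fold change was -9.68 (SE 0.55, adjusted p = 4.49e-05, limma) in the adenine model, the 3rd largest fall of 15029 tested entries, and -6.78 (SE 0.21, adjusted p = 5.71e-06) in UUO, the 21st of 15043. With 1 and with 0.01 added to FPKM the adenine value was -8.20 and -10.01. As kidney RNA is a mixture, fewer cells of a type and less RNA per cell cannot be told apart here or below.

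Slco1a1, the brush border carrier, had FPKM values of 97.2, 117.4 and 113.8 in control rats and 116.3, 69.3 and 106.6 in sham rats. It was listed at 0 in adenine rat 1 and at 0.120 and 0.214 in rats 2 and 3, and the UUO rats had 0.581, 0.345 and 0.661. The lowest reference rat stood far above every model rat, and all UUO rats were above all adenine rats, which is a comparison across separately normalized tables. The log2 fold change was -9.16 (SE 0.40, adjusted p = 2.61e-05) in the adenine model and -7.28 (SE 0.27, adjusted p = 9.83e-06) in UUO, the 4th and the 13th largest fall. Because the adenine values lie at or near the 0.1 added before the logarithm, the size of that fall depends on this number: it was -6.64 with 1 added and -10.69 with 0.01 added, and the UUO value was -5.98 and -7.51. No adenine rat reached the minimum of 0.5 FPKM, so the gene was tested there only because the control rats did.

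Slco4c1, the basolateral carrier of digoxin and thyroid hormone, was expressed at a lower level, with FPKM values of 11.2, 13.3 and 18.9 in control rats and 17.2, 7.18 and 10.5 in sham rats. The adenine rats had 0.0854, 0.335 and 0.203 and the UUO rats 0.317, 0.355 and 0.751. Again every model rat was below every reference rat. The adenine mean was 1.43% of the control mean and the UUO mean 4.08% of the sham mean, so that this gene kept a larger share than Slco1a6. The log2 fold change was -5.62 (SE 0.36, adjusted p = 6.19e-05) in the adenine model and -4.34 (SE 0.40, adjusted p = 0.000129) in UUO, the 57th and the 100th largest fall. With 1 and with 0.01 added to FPKM these values were -3.66 and -6.21 in the adenine model and -3.03 and -4.60 in UUO, since the model rats lie near the added number. Slco4c1 also passed the minimum in the adenine table only through its control rats.

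The promoters of these 3 members are shown because they fell together, with that of Slco1a4, a neighbour of Slco1a1 that stayed under 1 FPKM in all 12 rats. Each stretch runs from 250 bases before the start of the RefSeq gene to 50 after, on build GRCr8, and all 4 are on the minus strand: Slco1a1 at chr4:176681943-176682242, Slco1a4 at chr4:176495797-176496096, Slco1a6 at chr4:176838983-176839282 and Slco4c1 at chr9:104676413-104676712. Capitals mark matches to 3 short motifs searched on both strands, CAAAGTCCA for HNF4, GCGTG for the AHR:ARNT core and TATAAA for a TATA box.
Slco1a1: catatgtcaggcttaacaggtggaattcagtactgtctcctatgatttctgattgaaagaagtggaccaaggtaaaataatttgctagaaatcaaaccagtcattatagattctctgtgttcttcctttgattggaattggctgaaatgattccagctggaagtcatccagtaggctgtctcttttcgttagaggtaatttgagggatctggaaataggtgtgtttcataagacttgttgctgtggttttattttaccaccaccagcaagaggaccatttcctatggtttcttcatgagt
Slco1a4: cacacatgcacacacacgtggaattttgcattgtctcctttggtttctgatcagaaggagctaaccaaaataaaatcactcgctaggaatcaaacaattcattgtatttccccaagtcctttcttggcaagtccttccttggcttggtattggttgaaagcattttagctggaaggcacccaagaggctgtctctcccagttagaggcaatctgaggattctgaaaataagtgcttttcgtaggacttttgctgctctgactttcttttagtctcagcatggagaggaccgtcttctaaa
Slco1a6: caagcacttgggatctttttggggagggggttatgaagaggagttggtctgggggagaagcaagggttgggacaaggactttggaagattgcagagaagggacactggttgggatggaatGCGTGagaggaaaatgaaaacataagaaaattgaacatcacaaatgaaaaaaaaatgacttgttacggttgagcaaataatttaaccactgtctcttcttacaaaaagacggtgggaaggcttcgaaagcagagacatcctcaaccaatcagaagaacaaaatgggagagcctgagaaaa
Slco4c1: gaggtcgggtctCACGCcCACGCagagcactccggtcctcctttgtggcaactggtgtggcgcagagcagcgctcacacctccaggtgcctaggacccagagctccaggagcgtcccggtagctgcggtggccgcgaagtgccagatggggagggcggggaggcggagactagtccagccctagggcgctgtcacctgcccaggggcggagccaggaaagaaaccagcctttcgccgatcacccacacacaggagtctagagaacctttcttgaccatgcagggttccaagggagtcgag
Slco1a6 held GCGTG once, beginning at base -130 from the start, and Slco4c1 held it on the opposite strand, as CACGC, beginning at -238 and -232. The letters GCGTG or their complement are common, in 29.7% of 33469 RefSeq promoters of the same length, and CAAAGTCCA was in 0.391% and TATAAA in 14.2%. None of the 3 motifs was in the Slco1a1 window. Slco1a1 and Slco1a6 had a low GC content, 39% and 43% against a median of 51.7% over all promoters, whereas Slco4c1 had 64.7%. The Slco1a1 window was most like that of Slco1a4, with 206 of 283 aligned bases identical (72.8%), against 63% for Slco1a1 and Slco1a6. The latter is near the 61.1% for Slco1a1 and the 59.1% for Slco1a6 with Slco4c1, which lies on another chromosome. Like promoter letters in Slco1a1 and Slco1a4 thus went with FPKM values of about 100 for Slco1a1 and under 1 for Slco1a4. The other members' promoters had a GC content from 56.7% in Slco2b1 to 75.3% in Slco3a1. GCGTG was found in Slco4a1 and Slco2a1, TATAAA in Slco2a1, and none of the motifs in Slco2b1 or Slco3a1.

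Slco1a1 and Slco1a6 belong to a run of Slco1 genes on chromosome 4, in the RefSeq order Slco1c1, Slco1b2, Slco1a4, Slco1a1, Slco1a3, Slco1a6 and Slco1a5. Slco1a3 and Slco1a5 were not analysed here, since no entry carries those symbols. The other three of the run were at most at 0.922 FPKM in any rat, and none passed the minimum. The nearest tested genes outside the run did not share the large falls of Slco1a1 and Slco1a6. Pde3a, on the side of Slco1c1, rose by 1.56 in the adenine model (adjusted p = 0.00271) and by 1.81 in UUO (adjusted p = 0.000904) on the log2 scale. Pyroxd1, on the other side, also fell in the adenine model, but by 0.62 (adjusted p = 0.0106), and had a log2 fold change of -0.07 in UUO (adjusted p = 0.617). Beside Slco4c1, St8sia4 rose by 3.93 and 2.57 (adjusted p = 7.34e-05 and 0.000715), while Pam, the nearest tested gene on the other side, had values of -0.13 (adjusted p = 0.403) and 0.46 (adjusted p = 0.00199), and these flanking genes were chosen after their values were seen. Slco1a genes are similar in sequence, and how reads that match several of them were assigned is not given in the sources used here, so the split between Slco1a1 and Slco1a6 is uncertain.

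Slco2b1, a widely expressed carrier of steroid sulfates, had 3.23, 2.69 and 3.06 FPKM in control rats and 3.34, 3.34 and 2.64 in sham rats. It rose to 8.81, 13.6 and 11.6 in adenine rats and to 27.3, 18.2 and 30.7 in UUO rats. The 6 reference rats lay within a narrow range, and every model rat was above it. The mean ratio to the reference group was 3.78 in the adenine model and 8.18 in UUO, with log2 fold changes of 1.87 (SE 0.19, adjusted p = 0.000289) and 2.97 (SE 0.22, adjusted p = 5.43e-05). It was the member with the highest mean FPKM in UUO kidneys.

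Slco4a1, a carrier of thyroid hormone, was the lowest member on average in both reference groups, at 0.380, 3.66 and 0.605 FPKM in control rats and 1.77, 0.511 and 0.410 in sham rats. Adenine rats had 26.1, 8.59 and 18.7 and UUO rats 4.91, 4.07 and 3.41. The groups did not overlap in either table, but control rat 2 and sham rat 1 stood well above their groups, and adenine rat 2 well below its own. The log2 fold change was 3.90 (SE 0.80, adjusted p = 0.00566) in the adenine model and 2.33 (SE 0.49, adjusted p = 0.00496) in UUO. These are the largest standard errors among the members in both comparisons, and the adenine value was 4.80 without control rat 2 and 3.32 without control rat 1, while the UUO value was 2.91 without sham rat 1 and 1.97 without sham rat 3. The UUO value was also under the DEG threshold of 2 under median-of-ratios scaling (1.77), quantile scaling (1.48) and with 1 added to FPKM (1.50), so that its DEG call in UUO depends on the processing, although it stayed changed in each of these refits. It had the highest mean of the members in adenine kidneys, 17.8 ± 8.77 FPKM (SD, n = 3), and its range overlapped that of Slco2b1.

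Slco3a1, which carries prostaglandins and thyroxine among other substrates, rose by a similar amount in both models. Its FPKM was 4.03, 3.38 and 4.56 in control and 7.62, 11.0 and 8.95 in adenine rats. It was 7.42, 6.12 and 5.67 in sham and 14.7, 12.8 and 17.0 in UUO rats. The groups did not overlap within either table. The log2 fold change was 1.18 (SE 0.19, adjusted p = 0.00194) in the adenine model and 1.20 (SE 0.16, adjusted p = 0.000534) in UUO, and after median-of-ratios scaling it was 0.89 (adjusted p = 0.00571) and 0.60 (adjusted p = 0.0127). Slco3a1 was the only member whose control and sham rats did not overlap, with a sham mean 1.6 times the control mean across the separately normalized tables.

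Slco2a1, the prostaglandin transporter, had 8.07, 6.16 and 6.31 FPKM in control and 13.0, 7.53 and 8.67 in adenine rats. The sham rats had 8.98, 11.9 and 5.97 and the UUO rats 10.8, 19.8 and 16.6. Adenine rat 2 fell within the control range, and UUO rat 1 within the sham range. The log2 fold change was 0.47 (SE 0.23, adjusted p = 0.117) in the adenine model, with a 95% confidence interval from -0.07 to 1.02. In UUO it was 0.82 (SE 0.31, adjusted p = 0.0496), a call at the threshold that was lost, for example, without UUO rat 2 (0.63, adjusted p = 0.142) and under median-of-ratios scaling (0.22, adjusted p = 0.586). A two-sided exact permutation test of the gene alone gave p = 0.2 in each model, and p = 0.1, the smallest that 3 against 3 rats can give, for each of the other 6 members.

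**Figure D2:**
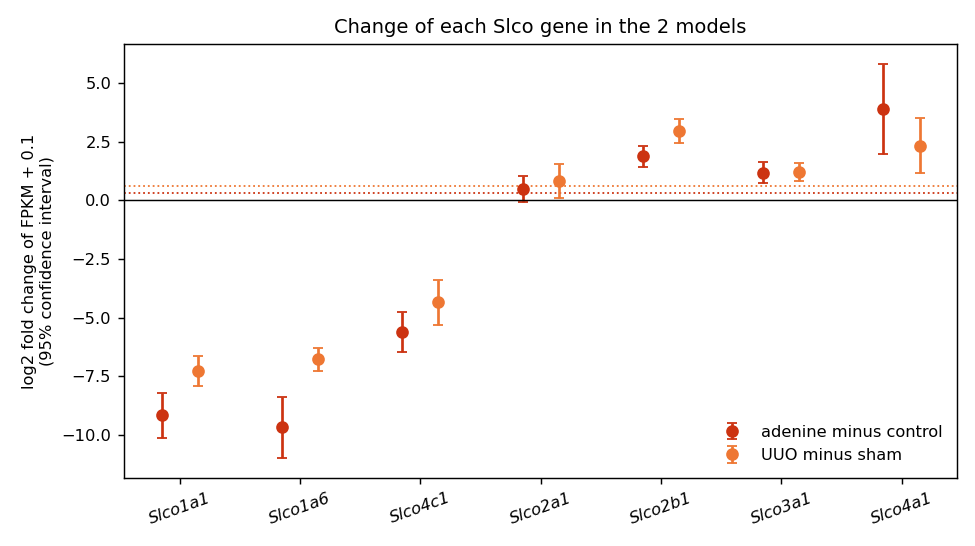
Log2 fold change of FPKM + 0.1 with its 95% confidence interval for each Slco gene, adenine minus control and UUO minus sham (3 rats a group). Dotted lines give the median of all tested entries, 0.30 and 0.62, and the 3 genes on the left lie between -9.68 and -4.34.

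These changes turned over which carriers made up the summed FPKM of the 7 members. Slco1a1 and Slco1a6 together were 92.2% to 96.3% of the sum in the 6 reference rats, 0.394% to 2.95% in the adenine rats and 5.20% to 6.13% in the UUO rats. The sum itself went from 411.0, 799.2 and 596.1 FPKM in control rats to 55.8, 42.2 and 48.6 in adenine rats, and from 649.0, 374.2 and 455.6 in sham rats to 61.8, 58.7 and 72.3 in UUO rats. Slco2a1, Slco2b1, Slco3a1 and Slco4a1 summed to 14.5 to 21.9 FPKM in the reference rats, 40.6 to 55.5 in adenine rats and 54.9 to 67.8 in UUO rats, so that they were 93.4% or more of what was left in each model rat. In control kidneys the order of the levels was Slco1a6, Slco1a1, Slco4c1, Slco2a1, Slco3a1, Slco2b1 and Slco4a1, and only the last pair overlapped. In sham kidneys the order was the same, with overlaps between Slco4c1 and Slco2a1 and between Slco2a1 and Slco3a1. In adenine kidneys Slco4a1, Slco2b1, Slco2a1 and Slco3a1 came first and each overlapped the next, and in UUO kidneys Slco2b1, Slco2a1 and Slco3a1 came first with overlaps between neighbours.

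**Figure D3:**
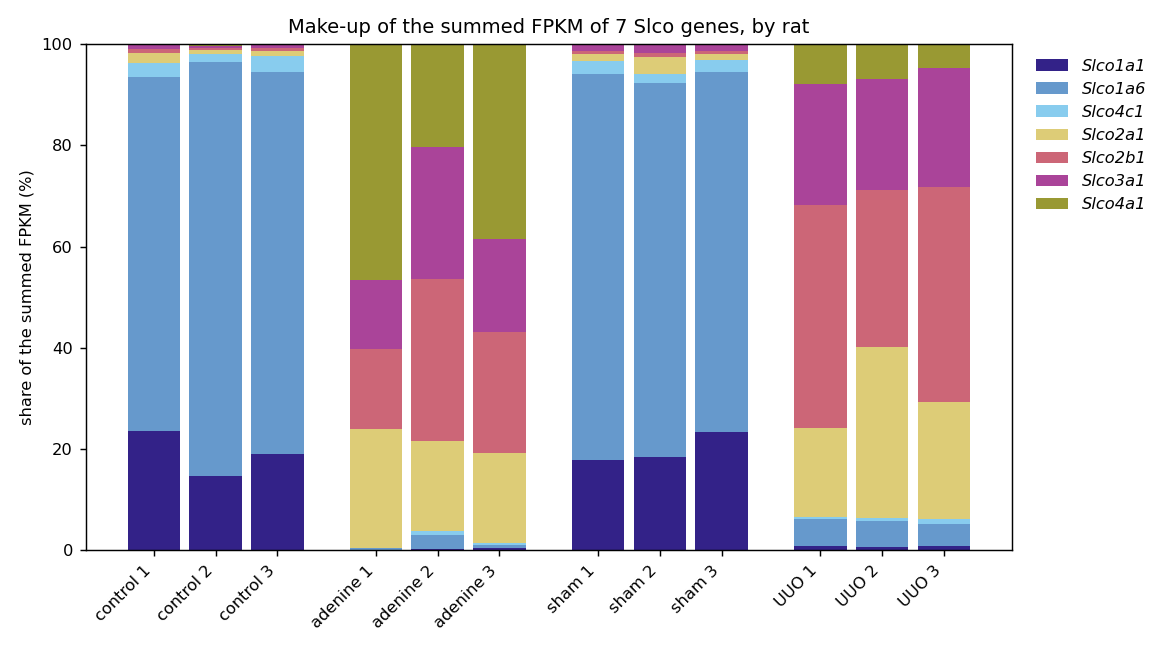
Share in percent of each of 7 Slco genes in their summed FPKM, 1 bar per rat. Slco1a1 and Slco1a6 fill 92.2% to 96.3% of the bar in every control and sham rat and at most 6.13% in any adenine or UUO rat, where Slco2a1, Slco2b1, Slco3a1 and Slco4a1 take their place.

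The size of the change was compared between the models as the difference of the 2 log2 fold changes, adenine minus UUO, with adjustment over 13486 symbols, of which 27% passed. Among the members, 3 of 7 passed. Slco1a6 fell further in the adenine model, with a difference of -2.91 (SE 0.58, adjusted p = 0.00365), as did Slco1a1, with -1.89 (SE 0.49, adjusted p = 0.0129), and Slco2b1 rose less, with -1.10 (SE 0.29, adjusted p = 0.0138). The Slco1a1 difference did not pass with 1 or 0.01 added to FPKM (-0.66, adjusted p = 0.0562, and -3.17, adjusted p = 0.0535), nor did that of Slco2b1 after median-of-ratios scaling (-0.79, adjusted p = 0.0601). For the other 4 the difference missed the threshold, with 95% confidence intervals from -2.45 to -0.11 for Slco4c1 (adjusted p = 0.0935), -0.45 to 3.61 for Slco4a1 (adjusted p = 0.229), -1.18 to 0.49 for Slco2a1 (adjusted p = 0.537) and -0.55 to 0.50 for Slco3a1 (adjusted p = 0.956). The models differ in agent, operation and time, which cannot be told apart in this difference.

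Markers of the S3 segment moved with the 3 members that fell. Marker counts here and below stand beside 39.6% of all tested entries that rose and 19.9% that fell in the adenine model. In UUO these shares were 56.1% and 14.4%. Of 6 listed S3 genes 5 were in the tables, and 4 of 5 fell in each model, with a median log2 fold change of -5.01 in the adenine model and -4.78 in UUO: the amino acid transporter genes Slc7a13 (-9.75 and -8.18) and Slc3a1 (-5.01 and -4.18), the organic anion transporter gene Slc22a7 (-4.97 and -4.92) and Aadat (-6.06 and -4.78). Their summed FPKM was 3789 to 6214 in control, 49.3 to 134.9 in adenine, 4423 to 6056 in sham and 154 to 211 in UUO rats. Within each reference group and within the adenine group the rats had the same order in this sum as in Slco1a6, highest in control rat 2, sham rat 1 and adenine rat 2, while the UUO rats did not. Measured against the mean log2 level of the S3 markers in the same rat, Slco1a1 and Slco1a6 were still lower in the adenine than in the control rats, by log2 differences of -3.87 and -4.39, and in UUO the differences were -2.74 and -2.24, with no overlap of the groups. Slco4c1 differed by -0.33 and 0.20 on this scale, and its groups overlapped in both models. These differences depend on which genes are in the list. The listed gene Slc5a1 was not changed (-0.66, adjusted p = 0.206, and -0.62, adjusted p = 0.136). Slc22a7 averaged 0.0413 FPKM in adenine and 0.0106 in UUO rats, below the 0.1 added before the logarithm. Slc7a13 alone fell at least as far as Slco1a1 and Slco1a6 in both models. The part of these markers in the members' changes was not tested.

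Genes listed for the proximal tubule as a whole had smaller median falls than the S3 markers. Of 10 listed, 5 fell and 2 rose in the adenine model and 7 fell in UUO, with medians of -1.75 and -2.06. The 2 that rose were the sodium lactate carrier gene Slc5a12 and the sodium bicarbonate carrier gene Slc4a4, which were near 0 in control kidneys, at 0.733 and 0.912 FPKM on average, although both are known from the early tubule. In sham kidneys, in the separately normalized table, Slc5a12 and Slc4a4 averaged 6.97 and 5.97 FPKM. Neither was changed in UUO (-0.04, adjusted p = 0.973, and 0.71, adjusted p = 0.255). The means near 0 were thus those of the control and not of the sham group, and the reason was not tested. Control rats also spread widely in Slc22a8 (70.1 ± 75.3 FPKM, SD, n = 3) and Gatm (301.5 ± 265.1). The list is therefore not an even measure of all segments in these kidneys. The summed FPKM of the 10 genes was 1667 to 3073 in control, 220 to 739 in adenine, 2603 to 3373 in sham and 376 to 751 in UUO rats. Relative to the mean log2 level of these 10 genes, Slco1a1, Slco1a6 and Slco4c1 were lower in both models, by differences of -8.22, -8.74 and -4.68 in the adenine model and -5.18, -4.68 and -2.24 in UUO. The marker mean itself shifted by -0.94 in the adenine model, where its groups overlapped and the 2 genes that rose are part of it. In UUO it shifted by -2.10, without overlap. Control rat 2, the highest control in Slco1a6 and Slco4a1, also had the lowest summed podocyte markers, 31.9 FPKM against 147.3 and 203.4, and without it the adenine log2 fold change of Slco1a6 was -9.40. Without adenine rat 2, the highest of its group, it was -10.29.

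Macrophage markers and Slco2b1 rose in both models, but the marker median was higher in the adenine model, where Slco2b1 rose less (1.87 against 2.97). Of all tested entries 10.7% and 13.2% were DEGs upward. All 8 listed genes were DEGs upward in both models, with a median log2 fold change of 4.40 in the adenine model and 3.84 in UUO, and their summed FPKM was 55.0 to 61.4 in control, 1198 to 1635 in adenine, 62.1 to 76.3 in sham and 719 to 1114 in UUO rats. Among the UUO rats the order of this sum, lowest in rat 3 and highest in rat 2, was the reverse of the order of Slco2b1. Among the adenine rats, rat 2 had the lowest sum and the highest Slco2b1. Against the mean log2 level of the macrophage markers, Slco2b1 was lower in the model than in the reference rats, by -2.64 in the adenine model and -0.75 in UUO. For Slco2a1, which endothelial cells express, the endothelium markers gave 2 higher and 4 lower of 7 in the adenine model (39.6% and 19.9% of all tested entries) and 5 higher in UUO (56.1%), with medians of -0.72 and 0.85 beside 0.30 and 0.62 for all and with summed FPKM of 130 to 164 in control, 66.8 to 89.2 in adenine, 133 to 151 in sham and 237 to 281 in UUO rats. On the scale relative to these markers Slco2a1 differed by 0.99 and -0.18. The part of these cell types was not tested.

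**Figure D4:**
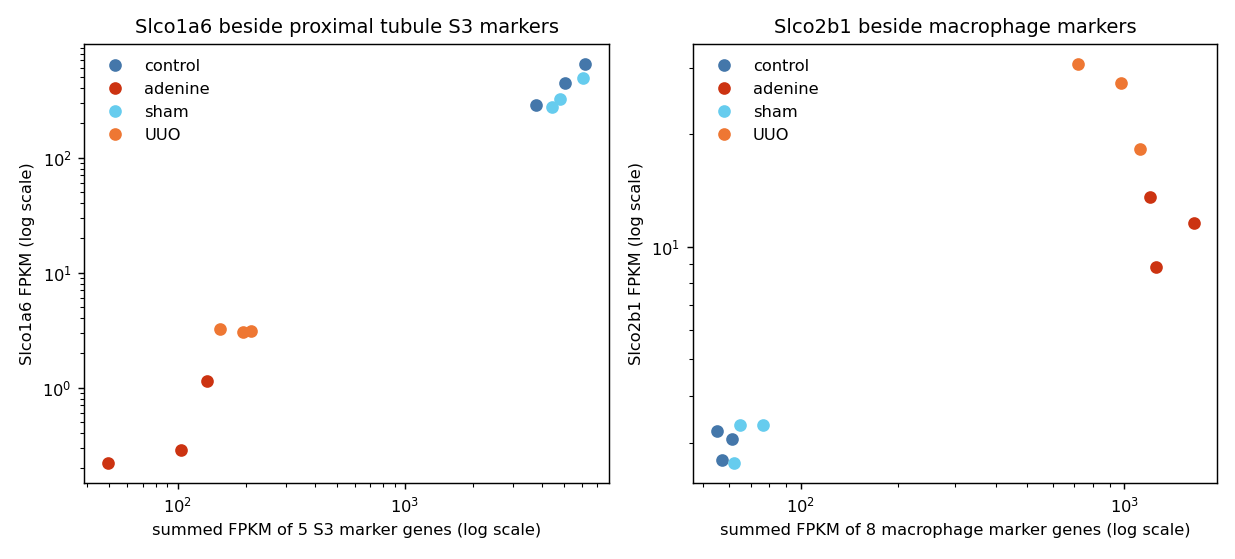
FPKM of Slco1a6 against the summed FPKM of 5 S3 marker genes (left) and of Slco2b1 against that of 8 macrophage marker genes (right), 1 point per rat, log axes. The reference rats lie apart from the model rats in both, and among the UUO rats Slco2b1 is highest where the macrophage sum is lowest, 719 FPKM.

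The other marker lists were measured in the same way. Of all tested entries, 39.6% rose in the adenine model and 56.1% in UUO. Injured tubule markers rose in 5 of 5 genes in both models, with medians of 1.88 and 2.50, and fibroblast and myofibroblast markers in 6 of 6 and 7 of 7, with medians of 2.05 and 4.15. Loop and distal tubule markers fell in 3 of 4 and 4 of 4 tested genes, collecting duct markers in 4 of 6 and 6 of 6, and podocyte markers in 1 of 5 in each model, with 1 rising in UUO. The podocyte falls lie near the share of all tested entries that fell, 19.9% and 14.4%. Of 5 hepatocyte genes, Alb, Apoa1 and Slco1b2 averaged under 1 FPKM in every group. Fgb, a fibrinogen chain, rose by 5.19 and 3.86 on the log2 scale, and Cyp2c11, a male-specific cytochrome P450, was at 58.9 FPKM in control and 56.4 in sham kidneys and fell, with log2 fold changes of -8.86 and -7.75. Cyp2c11 averaged 0 FPKM in adenine and 0.146 in UUO rats, so the sizes of its falls depend on the 0.1 added.

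Genes that act with these carriers were described from lists, whose counts are to be read against the 39.6% of all tested entries that rose and the 19.9% that fell in the adenine model, and 56.1% and 14.4% in UUO. Of a list named organic anion partners, other genes for uptake, exchange or efflux, 10 were tested. In the adenine model 7 fell and 1 rose (median -2.26), while 8 fell and 1 rose in UUO (median -2.73). The urate exchanger gene Slc22a12 (-5.68 and -4.67, adjusted p = 0.000536 and 5.61e-05) and Slc22a7, an S3 marker above (-4.97 and -4.92), fell the most. Abcc4, an efflux pump of organic anions that also exports prostaglandins, was the gene that rose, by 1.78 and 1.07. Of a list of conjugation enzymes, sulfotransferases and UDP-glycosyltransferases together with the sulfatase gene Sts, 5 of 7 fell in the adenine model and 5 of 6 in UUO, led by the sulfotransferase genes Sult1c3 (-3.85 and -4.17) and Sult1b1 (-3.70 and -3.33), and none rose. Of the PDZ proteins that anchor apical transporters 2 of 4 fell in each model, Pdzk1 (-2.60 and -2.47) and Slc9a3r1 (-1.77 and -1.57).

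Prostaglandin handling genes went in both directions beside Slco2a1. In the adenine model 3 of 12 rose and 4 fell (median 0.06), and in UUO 7 rose and 3 fell (median 0.71), where 56.1% of all tested entries rose and their median was 0.62, so that the UUO counts of this list lie near the background. The receptor gene Ptger2 rose by 4.35 and 2.51 (adjusted p = 5.71e-05 and 0.000509) and the cyclooxygenase gene Ptgs1 by 2.14 and 2.24, while the inducible cyclooxygenase gene Ptgs2 fell (-2.44 and -2.05). Ptger2 averaged 0.279 FPKM in control and 0.242 in sham rats, under the minimum, so it was tested only through its model rats. Of the thyroid hormone genes, 2 of 9 rose and 3 fell in the adenine model (median 0.04), and 1 rose and 3 fell in UUO (median -0.24). Dio1, which activates thyroxine, fell (log2 fold changes of -7.63 and -4.43, adjusted p = 0.000115 and 2.09e-05), and Dio3, which inactivates it, rose by 5.83 and 4.77 (adjusted p = 0.000111 and 0.000178). Dio3 averaged 0.0254 FPKM in control and 0.0177 in sham rats, below the 0.1 added, so the size of its rise depends on this number. It was tested only because model rats reached the minimum of 0.5 FPKM.

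Among genes that encode regulators of transporter genes, or that report on a regulator, 5 of 13 fell and 2 rose in the adenine model (median -0.81), and 5 of 14 fell and 5 rose in UUO (median 0.06). The prolactin receptor gene Prlr fell (log2 fold changes of -5.85 and -4.91, adjusted p = 9.89e-05 and 5.53e-06). The estrogen receptor gene Esr1 fell by 5.23 in UUO and had a value of -2.69 in the adenine model (adjusted p = 0.129). Cyp1b1, a target of the aryl hydrocarbon receptor, rose by 3.97 and 4.93, while Cyp1a1, another target, fell in the adenine model (adjusted p = 0.000633) and had a value of 0.59 in UUO (adjusted p = 0.392). Cyp1a1 averaged 0.0282 FPKM in adenine rats, below the 0.1 added, and was tested there only through its control rats (mean 2.08). The transcription factor gene Hnf4a fell in both models (-2.42 and -1.93), and it was named beside the rule because its motif was searched for in the promoters.

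For each member the 3 genes of most like pattern were found over 12 rats and 12147 symbols, by the root mean square difference of log2 values centred on the reference group, and these likenesses are descriptions. Slco1a1 was nearest to Akr1c12l1 (0.54), Hnmt (0.56) and the S3 marker Slc7a13 (0.58), and Slco1a6 to Slc7a12 (0.67), Hnmt (0.69) and Akr1c12l1 (0.72). Slco4c1 was nearest to Ust5r (0.42), the S3 marker Slc3a1 (0.43) and Slc6a13 (0.44). Slco2b1 was nearest to Cnrip1 (0.20), Akna (0.24) and Rab27a (0.24), Slco3a1 to Pask (0.14), Haus1 (0.14) and Ikbkb (0.15), and Slco2a1 to Stx17 (0.24), Poli (0.24) and Leng9 (0.25). Slco4a1, with the widest spread between rats, was nearest to Colec12 (0.49), Btk (0.63) and Lrat (0.63).

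The remaining Slco symbols, 6 in the adenine table and 8 in the UUO table, had FPKM values too low to be tested, with a highest value of 0.922 for Slco1a4 in control rat 2 and of 0.655 for the same gene in UUO rat 3. Slco1b2, the carrier typical of liver, was at most at 0.184. The summed FPKM of all entries was 564972 to 582725 in control, 468389 to 487770 in adenine, 619664 to 630244 in sham and 528811 to 539011 in UUO rats. The sequencing depth is unknown from these files, so no counting error can be given for values such as those of Slco1a1 in adenine rats.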

How the data were processed

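Kidney RNA of 12 rats (4 groups of 3, grouped by their labels) was analysed from 2 tables of FPKM, one per model, made and deposited by the authors. The submitters' processing notes name cutadapt 1.9, HISAT2 2.0.4, StringTie 1.3.4d, edgeR and DESeq2. The genome build and annotation are not given in the sources used here. Zero is written as 0 in the adenine table and as 0.0001 in the UUO table. Depth is unknown. Of low FPKM values, at most 1.43% in the adenine table and 8.3% in the UUO table shared a ratio to the first reference rat. These shares were not taken as a common step that would give whole reads. The number of rats limits precision.

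Entries with at least 0.5 FPKM in at least 3 of 6 samples were tested with limma 3.58.1 (R 4.3.3; lmFit and eBayes with a trend) on log2(FPKM + 0.1), within each table, with Benjamini-Hochberg adjustment over all tested entries. A fold change on this scale understates that of low genes. The difference between models was tested as the difference of the log2 fold changes over its combined standard error, on the summed degrees of freedom. The procedure was run on simulated data in which all genes had the same spread and changed genes were expressed in the reference group. That run says nothing on genes listed at 0 or with a wide spread, such as Slco1a1 in adenine rats or Slco4a1. The labels name 1 rat for each sample, so p-values set each group difference against the spread between these rats.

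The members, the gene lists and the marker lists were chosen with earlier results of these data known. Named were the 7 members, any other Slco gene that was tested, for each list up to 4 genes (the 2 largest changes in each model), and for each member the 3 genes of most like pattern. Exceptions are said where they occur. One listed regulator and a motif are not reported here. Promoters (RefSeq, GRCr8) were matched by symbol for 7 of 7 members. Alternatives were other added constants, filters, scalings, a fit without trend, a replicate block, single rats left out and levels relative to marker lists, of which those relative to proximal tubule markers were planned and those relative to S3, macrophage and endothelium markers were chosen after seeing the data.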

Additional observations from a re-analysis of the deposited data

Results flagged for a closer look

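The change of 3 members differed between the models by a test of the difference itself, as log2 fold change in the adenine model minus that in UUO. Slco1a6 gave -2.91 (95% confidence interval -4.17 to -1.65), as -9.68 against -6.78. Its size also rests on low FPKM in adenine rats: it was -1.77 with 1 added to FPKM and -3.19 with 0.01 added. Slco1a1 gave -1.89 (-2.93 to -0.84), as -9.16 against -7.28, and this value rests on FPKM at or near 0 in adenine rats. Slco2b1 gave -1.10 (-1.72 to -0.48), as 1.87 against 2.97, and all UUO rats were above all adenine rats, across tables that were normalized separately. Of all symbols tested 27% passed the same test.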

How the results depend on the processing

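Of 357 fold changes or differences refitted with a test under other settings, 333 kept their direction and their side of the adjusted p threshold. The changed calls of Slco1a1, Slco1a6, Slco4c1, Slco2b1, Slco3a1 and Slco4a1 held in both models in every refit with a test, and 6 of 7 members stayed changed in each model, or 7 under some settings. The number of DEGs was 4 or 5 in each model: in UUO the DEG call of Slco4a1 was lost under median-of-ratios (1.77) and quantile scaling (1.48), with 1 added (1.50) and without sham rat 3 (1.97), and in the adenine model Slco2b1 became a DEG with samples scaled to the same sum (2.13) and without adenine rat 1 (2.03). The UUO call of Slco2a1 was lost without a trend (0.82, adjusted p = 0.0677), with no filter (0.82, adjusted p = 0.196), with 0.01 added (0.82, adjusted p = 0.0518), under median-of-ratios (0.22) and quantile scaling (0.26), and without UUO rat 2, UUO rat 3, sham rat 1 or sham rat 3 (0.56 to 0.85). Over all single rats left out it ranged from 0.56 to 1.07. In the adenine model it passed when samples were scaled to the same sum (0.74, adjusted p = 0.0225). The cause was not tested.

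The ratio of mean FPKM gave -9.94 for Slco1a1 in the adenine model, where 1 rat is listed at 0. Relative to the markers listed for the proximal tubule as a whole, the values in the adenine model were -8.22 for Slco1a1, -8.74 for Slco1a6, 1.42 for Slco2a1, 2.81 for Slco2b1, 2.12 for Slco3a1 and -4.68 for Slco4c1, and in UUO -5.18, -4.68, 2.91, 5.06, 3.30 and -2.24, with 4.42 for Slco4a1. Relative to S3 markers, chosen after seeing the data like the next pair, Slco1a1 gave -3.87 and -2.74, Slco1a6 -4.39 and -2.24, and Slco4c1 -0.33 and 0.20, the last of opposite sign. Relative to macrophage markers Slco2b1 turned to -2.64 and -0.75, and relative to endothelium markers Slco2a1 gave 0.99 and -0.18. These values change by construction with the marker levels.

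The difference between models lost its call for Slco1a1 with 0.01 (-3.17) or 1 added (-0.66) and for Slco2b1 under median-of-ratios scaling (-0.79). That of Slco3a1, near 0, changed sign under median-of-ratios (0.29), quantile (0.20) and same-sum scaling (0.02), and ranged from -0.16 to 0.10 with single rats left out. With single rats left out, that of Slco4a1 ranged from 0.99 to 2.48 and passed without control rat 2 (adjusted p = 0.0235), and that of Slco4c1 ranged from -1.60 to -0.96 and passed without adenine rat 2 (-1.57, adjusted p = 0.0469) or sham rat 1 (-1.60, adjusted p = 0.0446).

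Replicate numbers did not pair the rats: the correlations of same-numbered rats' deviations were -0.12 to -0.05 in the adenine table and 0.05 to 0.11 in the UUO table, where each rat correlated best with its own number, a hint from the data and not from the design. With the replicate block no member's call changed: 6 and 7 members were changed, and Slco2a1 in UUO kept 0.82 (adjusted p = 0.0371). The block changed no other call.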
